A study of Mus musculus with 56 samples.

Results

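The comparison described here set microglia against astrocytes sorted from the same brains of young mice with wild-type Trem2. Its members were the libraries labelled as microglia or astrocytes of young TREM2 +/+ mice, 14 of the 56 libraries of the series: 7 of microglia and 7 of astrocytes. Each of 7 mice gave 1 library of each cell type under a shared animal number (1, 5, 9, 13, 17, 21 and 25), so the difference was taken within mice. All genes with enough counts entered, 7295 of the 53801 in the table.

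The mice were female, 2 months old and TREM2 +/+, and none carried the homozygous Trem2 knockout of the series' other arm. The strain was not given in the sources used here. Per the labels' protocols, brains were taken after perfusion with PBS and dissociated whole with an adult brain kit, and living cells were sorted by flow cytometry. Microglia were the cells positive for Cd11b, which other myeloid cells also carry, and astrocytes those positive for ACSA-2, an epitope of the sodium pump subunit Atp1b2. The remaining 21 mice of the series (young Trem2 knockout, and wild type and knockout at 16 to 18 months) gave 42 libraries, which served only as a second look at the same difference in other animals.

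Microglia are the resident macrophages of the brain. They arise from yolk sac progenitors, need CSF1 receptor signalling to survive, and clear debris through phagocytic receptors, complement and lysosomes. Astrocytes arise from the neural tube, take up glutamate and potassium released at synapses, supply cholesterol and metabolites to neurons and are coupled to each other by gap junctions.

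The libraries hold counts of tags from the 3′ ends of mRNA, so a gene was compared between libraries and not with other genes. Levels are CPM, a gene's tags set to a common library size after edgeR's TMM adjustment of the library totals. Differences are log2 fold changes, microglia minus astrocytes, ± standard error (SE). The median SE over the 7295 genes was 0.23, and among the 425 members of the gene lists below it exceeded 0.5 in 4. A gene was called when the Benjamini-Hochberg adjusted p of edgeR's quasi-likelihood test was under 0.05. It was called beyond 2-fold when the same fit passed a test against a log2 difference of 1. A gene could enter with enough counts in 1 cell type alone. Calls of genes sparse in the other type thus partly follow from this filter. Counts of list members called stand beside 33.8% of all genes called higher in microglia and 35.1% in astrocytes. The replicates are separate mice. With the animal as a block, a p-value sets the difference against the spread of within-mouse differences across these mice. In these bulk sorts, fewer cells of a type and less RNA per cell cannot be told apart.

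Total counts ran from 293960 (astrocytes of animal 9) to 1034874 (microglia of animal 1), with medians of 668302 in microglia and 571786 in astrocytes. Replicates differed by more than counting error in all 42 pairs, with a chi-square per degree of freedom of 1.87 to 6.88. The make-up of the libraries differed between the cell types. Mitochondrial ribosomal RNA genes took 7.79% ± 1.06 (SD, n = 7) of the counts in microglia and 17.8% ± 2.81 in astrocytes, and other mitochondrial genes 4.58% ± 0.244 and 9.75% ± 0.455. The 50 most abundant genes of a library took 30.3% ± 0.632 and 43.9% ± 2.71. After thinning to 293960 counts, 12115 ± 296 genes had a count in microglia and 13249 ± 243 in astrocytes. Each of the 4 measures was lower in microglia in 7 of 7 mice (exact two-sided sign-flip permutation test over mice, p = 0.0156, adjusted p = 0.0156, the smallest that 7 mice allow).

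The genes of the sort antigens followed the labels, as the sort itself fixes. Itgam, which encodes Cd11b, had a lowest, median and highest level of 1323, 1619 and 2758 CPM in microglia and 24.1, 41.7 and 98.7 CPM in astrocytes. Atp1b2 had 17.4, 36.4 and 67.7 CPM in microglia and 1946, 2143 and 2734 CPM in astrocytes. The cell types did not overlap in either gene.

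Markers that the sort did not use followed it too. Of 22 homeostatic microglial genes, 21 were called higher in microglia and 0 higher in astrocytes, with a median log2 difference of 5.51. Cx3cr1, the fractalkine receptor, had 8162, 10434 and 10883 CPM in microglia and 108, 156 and 387 CPM in astrocytes. Its difference was 5.80 ± 0.24 (adjusted p = 1.79e-21). Trem2, the lipid-sensing receptor the series is about, had 278, 393 and 641 CPM in microglia and 0, 4.10 and 15.8 CPM in astrocytes, a difference of 5.95 ± 0.25.

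Adgrg1, an adhesion receptor listed among the homeostatic microglial genes, did not separate the sorts. It had 343, 411 and 509 CPM in microglia and 347, 458 and 575 CPM in astrocytes, with a difference of -0.12 ± 0.14 (adjusted p = 0.434). The other mice gave -0.48 for the same gene.

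All 25 astrocyte markers were called higher in astrocytes, with a median log2 difference of -5.78. Slc1a2, the main glutamate transporter of astrocytes, had 59.1, 144 and 323 CPM in microglia and 6823, 7963 and 8757 CPM in astrocytes. Gfap, the intermediate filament used to stain astrocytes, was sparse in these whole-brain libraries: 26, 48.5 and 84.9 CPM in astrocytes against 0, 1.34 and 6.95 CPM in microglia. Glul, glutamine synthetase, was the marker with the smallest difference (-1.49 ± 0.17, adjusted p = 1.04e-09): microglia held 1264, 1645 and 2105 CPM and astrocytes 4135, 4840 and 6010 CPM.

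The level of each sort's markers was also taken in the other sort of the same mouse. The median over the microglial genes, in astrocytes as a percentage of microglia, ran from 1.28% to 4.24% across mice and was highest in animal 21. The median over the astrocyte genes, in microglia as a percentage of astrocytes, ran from 0.679% to 3.82% and was highest in animal 5. Gene by gene, 17 of the 22 microglial and 21 of the 25 astrocyte genes stood under 3%. The exceptions included Adgrg1 at 109% and Glul at 35.9%. Whether low levels such as these are the cells' own RNA or carried over was not tested.

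**Figure D1:**
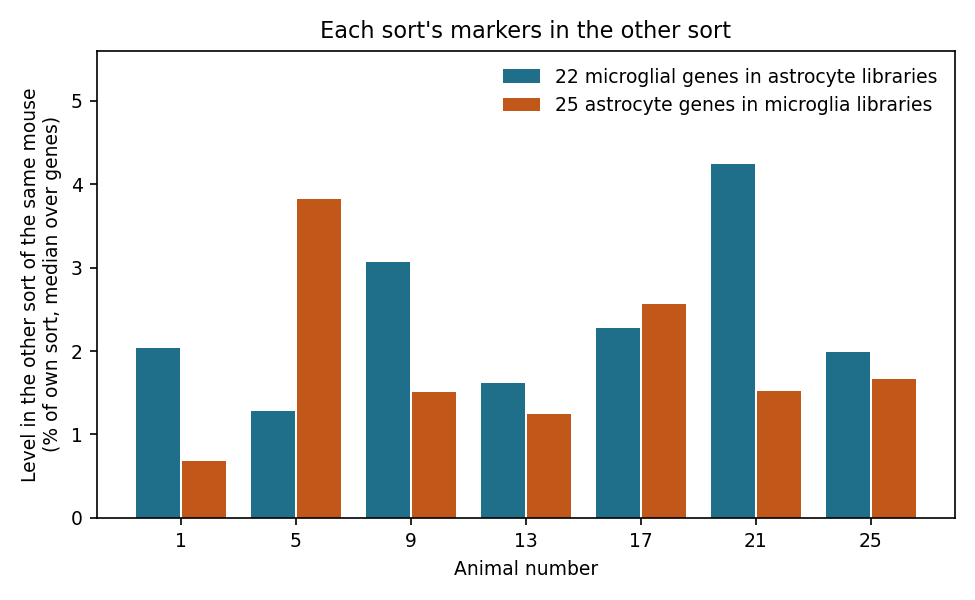
Median level of the microglial and astrocyte marker lists in the opposite sort of each mouse, as a percentage of their own sort (bars; x axis, animal number). The microglial genes peak at 4.24% in animal 21 and the astrocyte genes at 3.82% in animal 5.

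Across the transcriptome 5028 genes were called (68.9% of those tested), 2467 higher in microglia (33.8%) and 2561 higher in astrocytes (35.1%). Beyond 2-fold there were 2833 (38.8%), of which 1282 were higher in microglia (17.6%) and 1551 in astrocytes (21.3%). The lowest library of one cell type lay above the highest of the other for 3377 genes (46.3%). The median difference over all genes was -0.01, with quartiles of -1.01 and 0.84. The direction split depends on scaling: higher in microglia were 49.1% of the called genes with TMM and 62.2% with library totals alone, which moved the median of all genes to 0.36. Beyond 2-fold these shares were 45.3% and 54.9%.

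Which side held more of the large differences depended on their size and on scaling. A log2 difference of at least 3 in size was measured for 1531 genes called or not, 588 higher in microglia and 943 in astrocytes, and one of at least 6 for 172, of which 60 and 112. With library totals these counts were 672 and 865 at 3, and 103 and 43 at 6, so the order at 6 turned. Leaving out each mouse in turn gave 4687 to 5094 called genes and 2668 to 2933 beyond 2-fold.

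**Figure D2:**
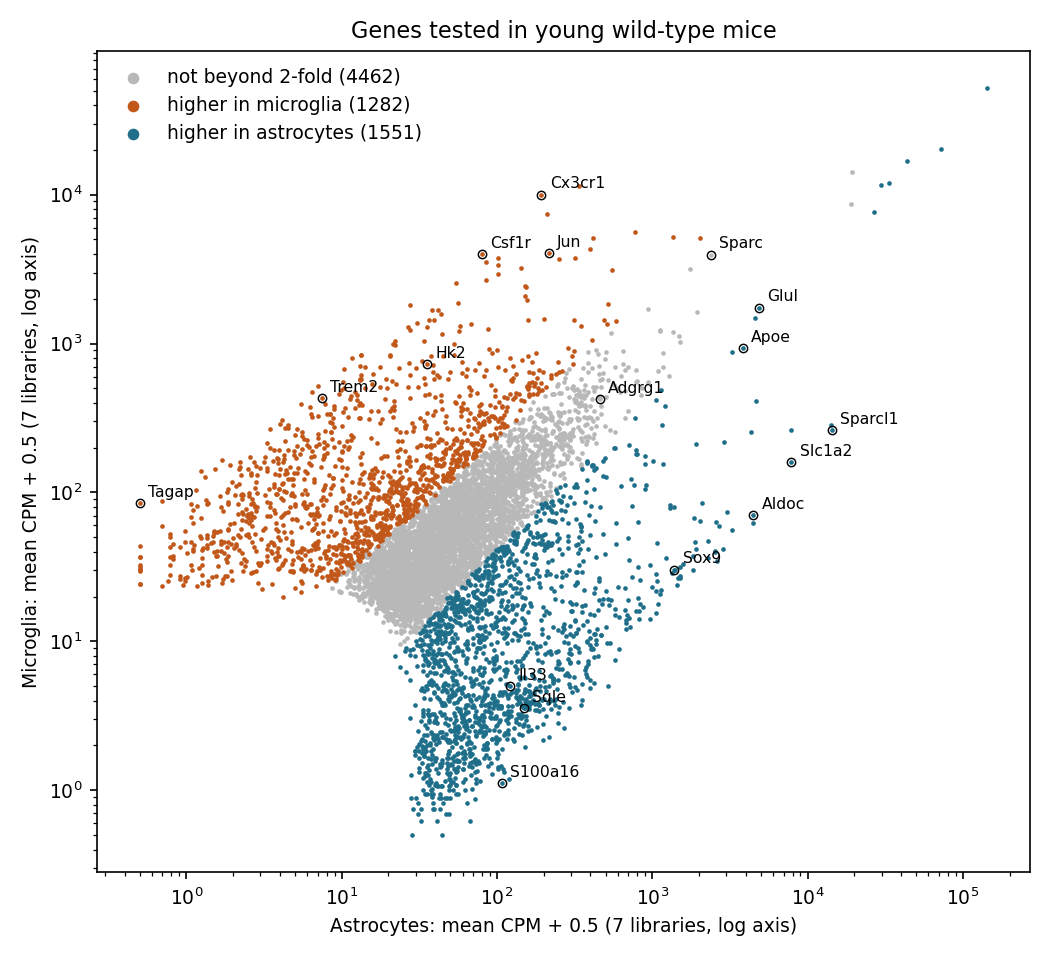
Mean level of each tested gene in astrocytes (x axis) and microglia (y axis), in CPM plus 0.5 on log axes, 7 libraries each. Orange genes (1282) were higher in microglia and blue genes (1551) higher in astrocytes beyond 2-fold; grey genes were not called beyond 2-fold. Adgrg1 and Sparc lie in the grey band.

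The 15 largest differences on the microglial side were led by Tagap and Rac2. Tagap, a GTPase-activating protein, had 397 counts over the microglial libraries (62.5, 67.0 and 134 CPM) and 0 counts over the 7 astrocyte libraries. Against a floor of 3 counts over the astrocyte libraries it was at least 92.3-fold higher. Rac2, a small GTPase of blood cells, had 403 counts in microglia and 1 in astrocytes, a ratio of sums of 281 with an exact 95% interval of 50.2 to 11135 for counting error. Irf5, Blnk, Lyve1, Fcgr1, Tbxas1, Was, Arhgap45, Ifi207, Il21r, Mfng, Ltc4s, Ms4a6b and Elf4 completed the 15 named by size, of which Lyve1 is also a marker of border macrophages. Among them are genes of an interferon regulatory factor, the B cell linker protein, the high-affinity IgG receptor, thromboxane synthase and the actin regulator of Wiskott-Aldrich syndrome. Such sizes rest on a few tags in astrocytes: the fitted difference of Tagap was 8.62 in these mice and 5.51 in the other mice, and that of Rac2 7.40 and 5.07.

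On the astrocyte side the largest difference was that of S100a16, a calcium-binding protein, with 345 counts in astrocytes (90.7, 102 and 130 CPM) and 2 in microglia. Its ratio of sums was 247, with an interval of 67.9 to 2049. Gdf10, a TGF-beta family ligand, had 113, 234 and 293 CPM in astrocytes and 0, 1.34 and 4.17 CPM in microglia. Agt, angiotensinogen, had 314, 362 and 376 CPM in astrocytes and 0, 2.68 and 10.4 CPM in microglia. The others were Ddo, which degrades D-aspartate, the non-coding gene Pantr1, the protease gene Htra1, the transcription factors Foxd3 and Pou3f4, the WNT antagonists Frzb and Sfrp5, and Mybpc1, Cacng5, Gdpd2, Nkain4 and Mfsd2a. Differences in the 21 other mice were smaller for Gdf10 (-6.84 here, -5.74 there) and Htra1 (-6.84 and -5.85).

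Transcription factors divided by lineage. Of 15 factors listed for microglia, 14 were called higher in microglia and 0 in astrocytes (median 4.55), beside 33.8% and 35.1% of all genes. Spi1, which encodes the myeloid master factor PU.1, had 268, 365 and 412 CPM in microglia and 2.83, 4.10 and 12.1 CPM in astrocytes (5.87 ± 0.23, adjusted p = 4.82e-22). Irf8, its partner in myeloid development, had 622, 669 and 789 CPM against 3.71, 11.3 and 29.6 CPM. No microglial library overlapped an astrocyte library for either factor.

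Ikzf1 (6.32), Irf5 (7.01) and Fli1 (5.44) had differences of like or larger size, while Sall1, the factor that sets microglia apart from other macrophages, had 3.63 and Bhlhe41 1.46. Etv5 was the factor that was not called (0.29).

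All 17 astrocyte factors tested, of 20 listed, were called higher in astrocytes (median -5.53). Sox9 had 999, 1492 and 1744 CPM in astrocytes and 5.56, 31.5 and 60.8 CPM in microglia. Sox2 (-5.76), Lhx2 (-5.92), Rfx4 (-5.88), Id4 (-5.92) and Npas3 (-6.25) were similar in size. The nuclear factor I genes differed among themselves: Nfib had -5.53, and Nfia and Nfix -2.05 and -2.01. Nfia had 191 ± 18.0 CPM (SD, n = 7) in microglia and 790 ± 47.8 CPM in astrocytes. The zinc finger factor Zbtb20 had 210 ± 47.3 and 1913 ± 198 CPM.

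**Figure D3:**
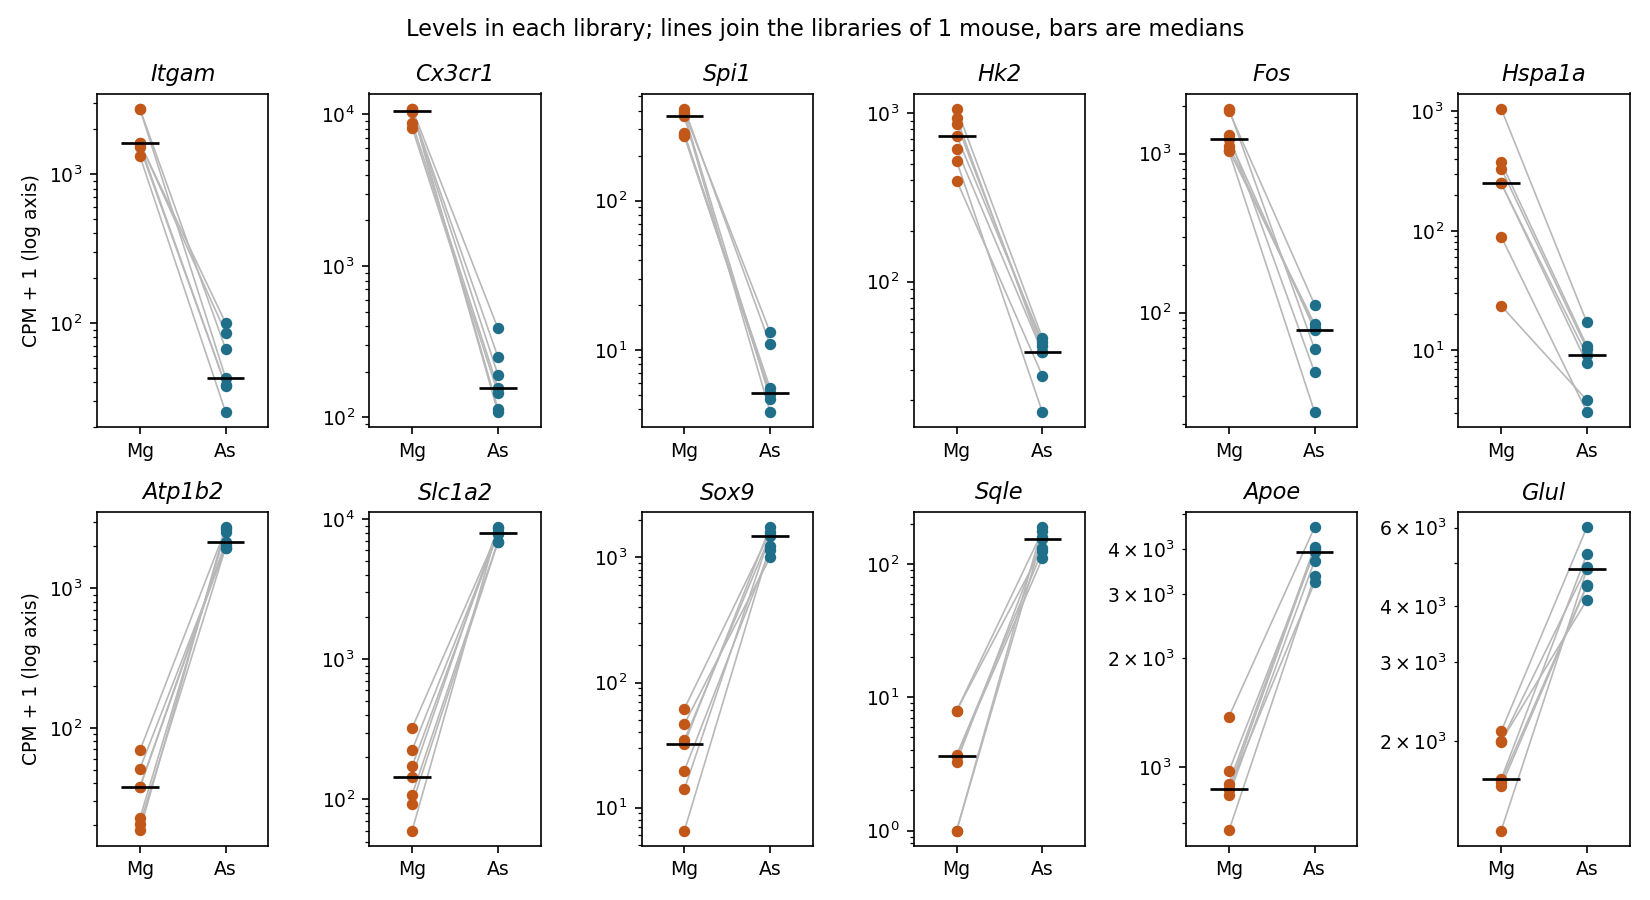
Level of 12 genes in each library, in CPM plus 1 on log axes that differ between panels. Mg marks microglia (orange) and As astrocytes (blue), grey lines join the 2 libraries of a mouse and black bars are medians. All 12 genes separate the cell types; Hspa1a spans 22.6 to 1050 CPM within microglia.

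The promoters of the microglia-high genes could be read for the PU.1 motif, because RefSeq's table gives, on GRCm38.p6, the bases from 250 before to 50 after each start. The motif was taken as GAGGAAGT on either strand. Of the 588 genes higher in microglia by a log2 difference of at least 3, 417 matched the table with 563 promoters, and 56 of these (9.95%) held it. Of the 943 genes higher in astrocytes by as much, 654 matched with 918 promoters, and 11 (1.20%) held it. The share was 2.62% among genes with an absolute difference under 0.5, 3.21% among all genes tested and 3.20% among all 32851 promoters of the table. A match describes letters in a window and not bound protein.

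Among abundant microglia-high genes, 148 had a promoter in the table. The listing of motif sites did not cover all of their promoters and held 21 genes. The share of the 148 with the motif is thus not given. Stretches of 6 of the promoters with a listed site follow, read in the direction of transcription, to show where the motif falls. Capitals mark the motif, as GAGGAAGT or as its reverse complement ACTTCCTC, and each stretch ends at or before the start site.
Inpp5d (chr1:87620256-87620311, + strand): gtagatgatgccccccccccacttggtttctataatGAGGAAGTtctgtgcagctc
Samsn1 (chr16:75909273-75909352, - strand): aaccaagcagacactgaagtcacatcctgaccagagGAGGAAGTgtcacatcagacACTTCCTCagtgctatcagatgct
Hpgds (chr6:65144736-65144815, - strand): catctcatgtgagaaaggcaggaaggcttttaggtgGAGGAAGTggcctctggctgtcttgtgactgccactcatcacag
C1qc (chr4:136893066-136893145, - strand): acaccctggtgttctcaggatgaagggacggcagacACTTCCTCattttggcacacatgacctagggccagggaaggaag
Pf4 (chr5:90772389-90772434, + strand): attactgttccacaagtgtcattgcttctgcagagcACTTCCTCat
Ctsc (chr7:88277898-88277977, + strand): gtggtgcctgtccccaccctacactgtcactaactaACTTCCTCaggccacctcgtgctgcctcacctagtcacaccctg

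In Inpp5d, which encodes the SHIP1 lipid phosphatase, 13 bases were counted from the motif's end to the start site. The gene had 314, 386 and 453 CPM in microglia and 1.85, 4.04 and 11.8 CPM in astrocytes (6.25 ± 0.24). In C1qc, which encodes a chain of complement C1q, the motif stood 188 bases before the start, and the levels were 2968, 3832 and 4527 CPM against 57.5, 79.3 and 213 CPM. Of the 23 motif sites in the 21 genes, 19 lay within 100 bases upstream of the start or after it.

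Other motifs differed less between the promoter groups, with the microglia-high share first and the astrocyte-high share second. The TATA box TATAAA in 11.9% and 8.17%, and the SOX motif ACAATG in 6.22% and 8.17%. The GC box GGGCGG was in 47.2% and 51.7%, below its share of 66.0% among promoters of genes with an absolute difference under 0.5. The median number of CG dinucleotides per 300-base promoter was 8 in the microglia-high set, 15 in the astrocyte-high set and 23.5 in the set with small differences. Motif shares were not adjusted for this base composition.

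Of 5 genes tested on the CSF1 and IL34 axis and related receptors, 4 were called higher in microglia. Csf1r, the receptor of CSF1 and IL34 on which microglial survival depends, had 3075, 4064 and 4926 CPM in microglia and 39.7, 63.5 and 172 CPM in astrocytes (5.77 ± 0.24). Csf3r, the G-CSF receptor gene, had 6.13, and the GM-CSF receptor chains Csf2rb and Csf2ra had 5.39 and 2.66. The ligand gene Csf1 had 25.1, 38.2 and 53.9 CPM in microglia and 19.7, 24.3 and 48.2 CPM in astrocytes. The cell types overlapped for it (0.35 ± 0.24, adjusted p = 0.194). Il34, the second ligand, had too few tags for the test.

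Cytokine and contact signals between the glia ran in both directions. Of 25 ligand and receptor genes tested, 20 were called higher in microglia and 5 in astrocytes (median 4.10). Ligand genes on the microglial side included Il1a (5.14), Il1b (5.16), Tnf (4.47), Ccl3 (5.32), Ccl4 (5.49) and Tgfb1 (4.92). These are levels after dissociation and sorting, and how the levels before dissociation compared was not tested. Il33, an alarmin of the IL-1 family, lay on the astrocyte side with 84.9, 126 and 150 CPM against 0.868, 2.62 and 14.8 CPM in microglia (-4.72 ± 0.30).

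The TGF-beta ligands split by isoform. Tgfb2 had 92.4, 101 and 116 CPM in astrocytes and 0, 4.04 and 6.95 CPM in microglia (-4.79 ± 0.29), opposite to Tgfb1, while both receptor genes, Tgfbr1 (4.72) and Tgfbr2 (4.10), were higher in microglia. The receptors of the apoptotic-cell ligand GAS6 split as well. Mertk was higher in microglia with 731, 847 and 1042 CPM against 244, 392 and 478 CPM, a difference that did not pass the test against 2-fold (1.20 ± 0.14, adjusted p = 0.065 against 2-fold). Axl was higher in astrocytes (-1.69). Il18 (-1.44) and the contact signal Cd47 (-0.39) were also higher in astrocytes, and the CD47 receptor gene Sirpa (1.48) in microglia. Cx3cl1, Ccl2 and 5 further members had too few tags to test.

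Complement and phagocytic genes were mostly microglial. Of 8 complement genes tested, 7 were called higher in microglia, Itgam, the sorted antigen, among them. C1qa and C1qb had differences of 5.64 each, and C3ar1, the receptor for the C3a fragment, 6.12. Cd59a, which blocks assembly of the membrane attack complex, was higher in astrocytes (-3.94). The genes C3 and C4b had too few tags.

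Of 17 phagocytosis and Fc receptor genes, 14 were called higher in microglia and 2 in astrocytes. Fcgr1 (6.84), Fcer1g (6.10), Fcgr3 (5.68) and Tyrobp (5.35), which carry or pass on activating signals, were on the microglial side. Megf10, an engulfment receptor, had 100, 133 and 176 CPM in astrocytes and 0, 2.29 and 10.4 CPM in microglia (-5.25 ± 0.30). The integrin subunits that bind apoptotic cells differed: Itgb5 was higher in microglia (3.59) and Itgav was not called (-0.02).

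Lysosomal genes were more mixed. Of 32 tested, 22 were called higher in microglia, 5 in astrocytes and 5 were not called, with a median of 1.78. Cathepsin genes ran from Ctss (5.30), with 9576, 11970 and 13098 CPM in microglia and 170, 259 and 835 CPM in astrocytes, through Ctsc (4.55), Ctsd (3.18) and Ctsb (1.93) to Ctso (-0.90). The membrane protein gene Lamp1 (0.22) and the lipid-degradation cofactor gene Psap (-0.47) were not called. Gm2a, which presents gangliosides to hexosaminidase, was higher in astrocytes (-0.95), and Hexa, which encodes a hexosaminidase subunit, in microglia (2.35). With library totals the lysosomal counts became 25 and 3.

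Pattern recognition was microglial: 16 of 17 Toll-like receptor and inflammasome genes were called higher in microglia (median 4.38). The LPS co-receptor gene Cd14 (5.74), Tlr7 (5.73), Nlrp3 (5.81) and Ly86 (6.33) had the larger differences. Tlr3, the receptor for double-stranded RNA, had 82.9, 126 and 197 CPM in astrocytes and 68.6, 84.9 and 88.6 CPM in microglia. It was called higher in astrocytes although the libraries overlapped (-0.71 ± 0.16, adjusted p = 2.57e-04), and with library totals the call was lost (-0.34).

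Antigen presentation followed the same side. All 4 MHC class I genes tested were called higher in microglia, among them B2m with 3745 ± 362 CPM against 316 ± 59.0 CPM (SD, n = 7). All 6 MHC class II genes were called higher in microglia as well. H2-Aa had 249, 393 and 488 CPM in microglia and 5.38, 10.3 and 35.5 CPM in astrocytes, and Cd74 had 92.9, 181 and 270 CPM against 0, 1.85 and 12.1 CPM. Reads of these related MHC genes may be shared. Of 10 interferon-stimulated genes, 8 were higher in microglia with a median of 1.25, and the largest difference was Bst2 (4.15).

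Markers of other myeloid and lymphoid cells were mostly higher in the Cd11b sort too. The 9 border macrophage markers, of which 7 were tested and all 7 called, summed to 809 to 1455 CPM in microglia and 19.8 to 57.3 CPM in astrocytes. The 9 neutrophil markers summed to 256 to 559 CPM and 0 to 20.2 CPM, with 3 of 3 tested called higher in microglia, beside 33.8% of all genes. Sparse in astrocytes, the tested members of both lists entered through the microglial libraries, so these calls partly follow from the count filter. The B cell list, of which 1 gene (Ighm) was tested, summed to 205 to 366 CPM and 0 to 9.87 CPM, and Cd79a and Ms4a1 were at 0 in all 7 microglial libraries. T and NK cell markers summed to 6.86 to 31.0 CPM in microglia, with Cd3e, Cd3d and Cd3g at 0. The monocyte list, of which 2 genes were tested, summed to 102 to 162 CPM and 40.8 to 103 CPM. Its tested genes split. Ccr2 was called higher in microglia, with means of 83.6 CPM in microglia and 0.857 CPM in astrocytes. Vcan was called higher in astrocytes, with means of 2.67 CPM in microglia and 52.9 CPM in astrocytes. The part of these cells in the microglial differences was not tested.

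Cholesterol synthesis was an astrocyte property in these libraries. Of 14 genes tested, of 21 listed, 13 were called higher in astrocytes and 1 in microglia (median -3.27). Sqle, squalene epoxidase, had 109, 154 and 189 CPM in astrocytes and 0, 2.62 and 6.95 CPM in microglia (-5.67 ± 0.32). Hmgcs1, which makes HMG-CoA, had 324, 346 and 404 CPM against 18.3, 36.1 and 52.1 CPM. Neither gene overlapped between the cell types. Msmo1 (-3.85), Cyp51 (-3.52) and the regulator Srebf2 (-2.37) were on the same side. Ebp, a sterol isomerase gene, was the exception (0.72 ± 0.27, adjusted p = 0.0178), and it lost its call without animal 17 (0.65) or without animal 21 (0.50).

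Of 18 lipid transport genes, 11 were called higher in astrocytes and 4 in microglia, beside 35.1% and 33.8% of all genes. Apoe, the main lipoprotein of the brain, had 3231, 3921 and 4589 CPM in astrocytes and 667, 870 and 1376 CPM in microglia (-2.07 ± 0.17, adjusted p = 1.28e-13). Clu (-6.03), Lcat (-5.82), Fabp7 (-5.63) and the lipoprotein receptor genes Lrp8 (-4.32) and Vldlr (-4.16) were also higher in astrocytes. The efflux pumps Abca9 (5.14), Abcg1 (2.71) and Abca1 (0.58) and the lipase gene Lpl (3.86) were higher in microglia. Abca9 had 291, 344 and 416 CPM in microglia and 2.27, 9.42 and 21.7 CPM in astrocytes.

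The ACSA-2 sort also held oligodendrocyte RNA, which lay on the same side as most of these lipid genes. The 10 oligodendrocyte markers, of which 8 were tested and all 8 called higher in astrocytes, summed to 3237 to 16685 CPM in astrocytes and 354 to 731 CPM in microglia, and Opalin was at 0 in microglia. The part of oligodendrocyte RNA in the lipid differences was not tested.

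Energy metabolism leaned to astrocytes with smaller differences than the lineage genes. Of 12 glycolysis genes tested, 10 were called higher in astrocytes and 1 in microglia (median -1.37). Aldoc (-6.20), Pfkm (-4.94) and Pfkp (-4.49) had the larger differences, and Pkm (-1.08), Tpi1 (-1.51) and Eno1 (-2.15) smaller ones. Hk2, the inducible hexokinase, went the other way with 397, 733 and 1061 CPM in microglia and 15.9, 37.5 and 45.4 CPM in astrocytes (4.34 ± 0.17, adjusted p = 9.52e-22), while Hk1 was higher in astrocytes (-1.98). Gapdh, Pgk1 and Pgam1 had too few tags in this table for the test, a cause that was not tested.

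Fatty acid oxidation showed the same lean: of 18 genes, 15 were called higher in astrocytes and 1 in microglia (median -1.51). Cpt1a, the entry step into mitochondria, had -1.94 and the regulator Ppara -4.65, while the short-chain dehydrogenase gene Acads was the member on the microglial side. Of 26 nuclear genes of oxidative phosphorylation, 24 were called higher in astrocytes and 0 in microglia (median -1.03). With library totals the counts were 20 and 0 and the median -0.66, so the direction held while its size moved with scaling. The mitochondrial transcript mt-Nd4 had 11933 ± 1581 CPM in microglia and 33209 ± 2984 CPM in astrocytes (-1.48 ± 0.19).

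**Figure D4:**
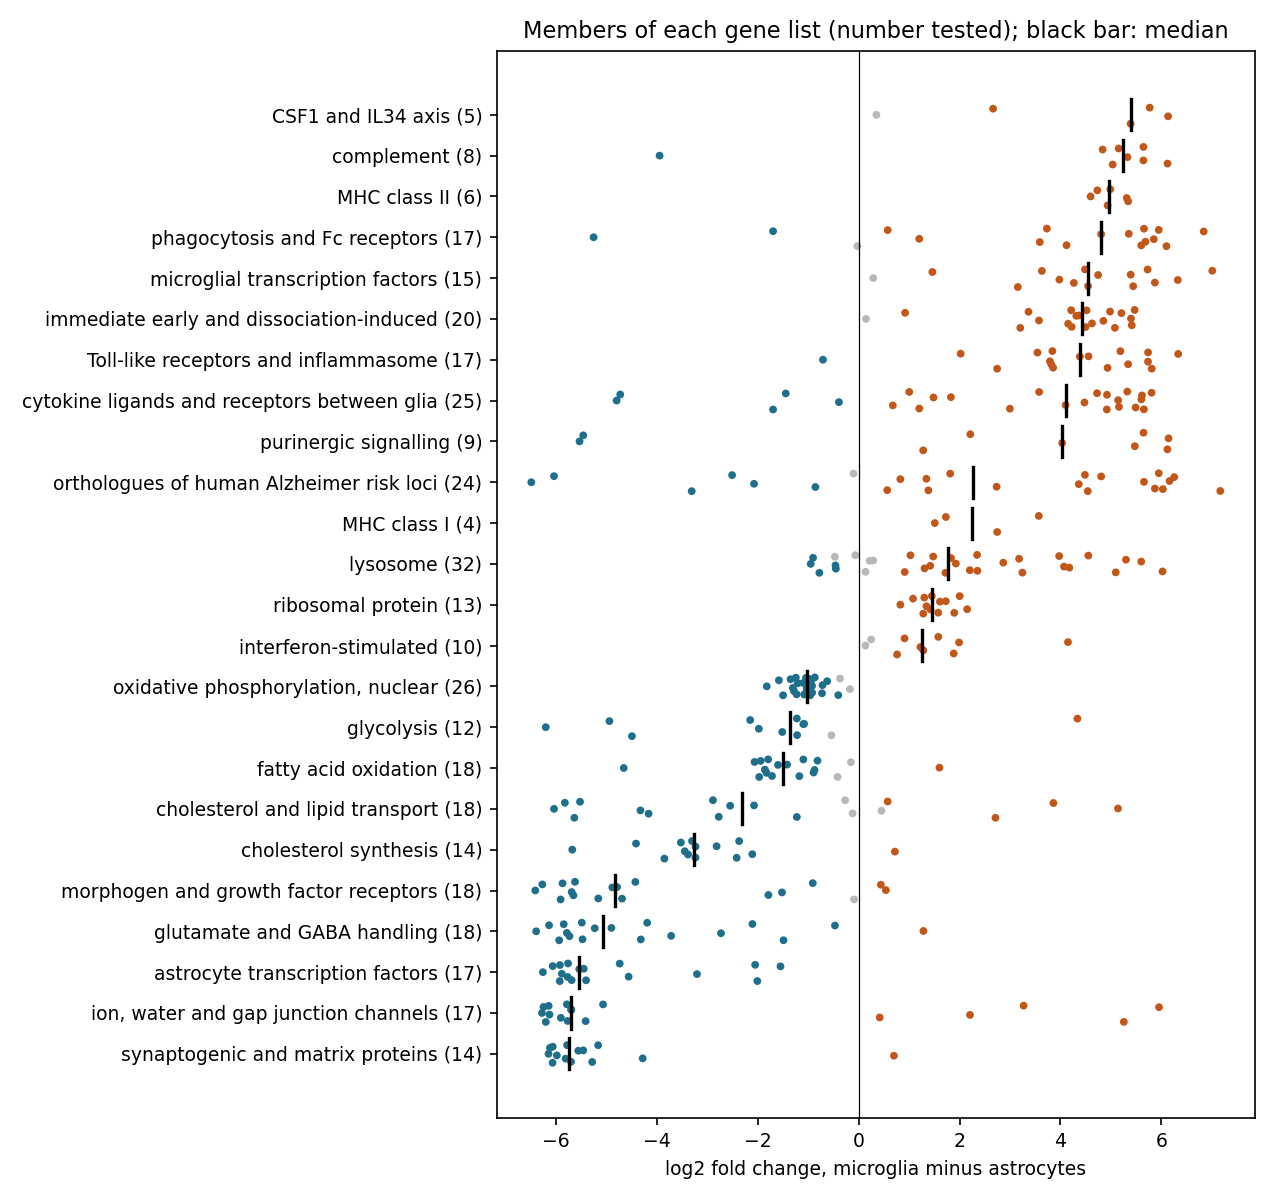
Log2 difference, microglia minus astrocytes, of each tested member of the pathway lists, cell type marker lists not shown (points; the number tested is in brackets). Orange and blue points were called higher in microglia and in astrocytes, grey points were not called, and black bars are medians, from -5.74 for synaptogenic and matrix proteins to 5.39 for the CSF1 and IL34 axis.

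Neurotransmitter handling separated strongly. Of 18 glutamate and GABA genes, 17 were called higher in astrocytes and 1 in microglia (median -5.06). The GABA transporter gene Slc6a11 had 2231, 2548 and 3448 CPM in astrocytes and 13, 24.1 and 69.5 CPM in microglia (-6.39 ± 0.27). The glycine transporter gene Slc6a9 (-6.13), the glutamine exporter gene Slc38a3 (-5.93) and the glutamate transporter gene Slc1a3 (-3.71) were on the same side.

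Ion and water channels fell into separate sets. Of 17 genes, 12 were called higher in astrocytes and 5 in microglia, and Atp1b2, the sorted antigen, was one of the 12. Aqp4, the water channel of astrocyte endfeet, had 1224, 1309 and 2163 CPM in astrocytes and 6.95, 22.9 and 67.7 CPM in microglia. The connexin genes Gja1 (-6.24) and Gjb6 (-5.69), the bicarbonate cotransporter gene Slc4a4 (-6.27) and the potassium channel gene Kcnj10 (-5.06) were astrocytic. The proton channel gene Hvcn1 (5.26) and the potassium channel genes Kcnk6 (5.95) and Kcnk13 (2.21) were microglial.

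Purine signalling was split between a microglial receptor set and an astrocytic pair. Of 9 genes, 7 were called higher in microglia. P2ry12, the ADP receptor that guides processes to injury, had 2210, 3790 and 4870 CPM in microglia and 42.5, 71.3 and 188 CPM in astrocytes. P2ry6 (6.14), Adora3 (6.12), P2ry13 (5.64) and the ATP-degrading enzyme gene Entpd1 (4.03) shared its side. Entpd2, a second enzyme that degrades ATP, had 35.5, 47.6 and 72.3 CPM in astrocytes and 0, 0.868 and 1.74 CPM in microglia (-5.53 ± 0.42). The adenosine receptor gene Adora1 was astrocytic too (-5.45).

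Developmental receptors and synapse-organizing proteins lay on the astrocyte side. Of 18 morphogen and growth factor receptor genes, 15 were called higher in astrocytes and 2 in microglia (median -4.83). Differences were large for the hedgehog mediator Gli2 (-6.40), Fgfr3 (-6.26), Fzd1 (-5.90) and Ntrk2 (-5.68), while Notch1 had -1.79, Bmpr2 0.54 and Notch2 was not called (-0.09). Of 14 synaptogenic and matrix genes, 13 were called higher in astrocytes (median -5.74). Sparcl1, also known as hevin, had 262 ± 167 CPM in microglia and 14382 ± 2202 CPM in astrocytes. Its relative Sparc, which counters hevin's effect on synapses, was higher in microglia: 3027, 3465 and 5366 CPM against 2079, 2534 and 2761 CPM (0.70 ± 0.17, adjusted p = 4.66e-04).

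Markers of other cells of the neural tube and vessels were higher in the ACSA-2 sort. The 8 ependymal and choroid markers summed to 362 to 1268 CPM in astrocytes and 52.5 to 492 CPM in microglia, and 5 of 6 tested were called higher in astrocytes. Foxj1, the master factor of motile cilia, had 36.8, 90.9 and 150 CPM against 0, 0 and 2.78 CPM. The choroid plexus gene Ttr was not called (-0.98 ± 0.54, adjusted p = 0.147). Mural markers summed to 143 to 352 CPM in astrocytes and 13.1 to 38.2 CPM in microglia, fibroblast markers to 117 to 153 CPM and 3.47 to 19.1 CPM, and neuronal markers to 419 to 978 CPM and 117 to 497 CPM. Endothelial markers (47.2 to 182 CPM and 44.3 to 93.8 CPM), oligodendrocyte precursor markers (13.8 to 52.6 CPM and 0 to 10.4 CPM) and red cell genes (0 to 150 CPM and 2.62 to 163 CPM) were low or overlapped. The part of these cells in the astrocyte differences was not tested.

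Immediate early and stress genes were high in microglia. Of 20 genes listed for activity or tissue dissociation, 19 were called higher in microglia and 0 in astrocytes (median 4.43). Fos had 1037, 1238 and 1917 CPM in microglia and 22.7, 76.8 and 111 CPM in astrocytes (4.37 ± 0.20). Atf3 had 667, 1038 and 1228 CPM against 11.1, 20.2 and 43.4 CPM (5.47 ± 0.22). Both cell types came from one dissociation per mouse, and how the levels before dissociation compared was not tested.

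Hspa1a, an inducible heat shock protein gene, was uneven within microglia: 22.6, 251 and 1050 CPM, lowest in animal 5 and highest in animal 13, against 2.05, 8.09 and 16.2 CPM in astrocytes. The astrocytes of animal 13 were also the highest of their sort and those of animals 1 and 5 the lowest. Hspa1b, its near-identical copy, with which it may share tags, had 646 ± 899 CPM in microglia and 38.5 ± 19.5 CPM in astrocytes. The constitutive chaperone gene Hsp90aa1 was not called (0.15).

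All 13 ribosomal protein genes tested, of 23 listed, were called higher in microglia, with a narrow range of differences from 0.83 (Rpl8) to 2.15 (Rplp1) and a median of 1.45. Tags of these genes may be shared with processed gene copies. The median was 1.81 with library totals.

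Mouse orthologues of genes at human Alzheimer's disease risk loci fell on both sides. Of 24 tested, 17 were called higher in microglia and 6 in astrocytes (median 2.27). Beside Trem2, Spi1 and Inpp5d, the microglial side held Ms4a6d (6.16), Abi3 (6.03), Cd33 (5.65), Plcg2 (4.81), Picalm (2.73) and Bin1 (1.81). Cass4 had 149 counts in microglia and 0 in astrocytes, at least 34.7-fold higher against the floor of 3 counts over the astrocyte libraries. The astrocyte side held Fermt2 (-6.48), Clu (-6.03), Bace1 (-3.31), Sorl1 (-2.51), Apoe (-2.07) and App (-0.86). Psen2 was not called (-0.10).

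Within gene families the cell types often favoured different members. Of the glucose transporters, Slc2a5 had 197 ± 24.1 CPM in microglia and 2.94 ± 3.05 CPM in astrocytes, and Slc2a1 24.2 ± 7.03 CPM and 187 ± 50.8 CPM. Opposite signs, first member microglial, were also measured for Coro1a and Coro2b (4.60 and -4.71), Laptm5 and Laptm4b (6.02 and -1.91), Pla2g15 and Pla2g7 (3.88 and -4.90), Gnai2 and Gnao1 (1.11 and -4.92) and Myo1f and Myo6 (5.32 and -3.78). In other pairs the members kept one side with unequal size, as with Rac2 and Rac1 (7.40 and 0.67), Cebpa and Cebpd (4.55 and 1.63), Aldoc and Aldoa (-6.20 and -1.22) and Id4 and Id2 (-5.92 and -2.01). For Lpcat2 and Lpcat3 (4.69 and 0.21) and for Arpc1b and Arpc1a (3.44 and -0.31) the second member was not called.

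Among tested genes labelled as non-coding, differences were at least as common as among those labelled as coding. The labels are those of the deposited counts, under which Ifi30 and Zswim6 fell among the long non-coding genes and Clec7a among the pseudogenes. Beyond 2-fold were 61.1% of 198 long non-coding genes (58 higher in microglia and 63 in astrocytes), 61.5% of 26 pseudogenes and 38.1% of 7058 coding genes. These shares were not compared by a test. Sparse genes can enter through 1 cell type alone, and how this weighs on the shares was not tested. Sox2ot, whose locus overlaps Sox2, had 4.48 ± 2.48 CPM in microglia and 190 ± 52.7 CPM in astrocytes, and Rmst had 1.08 ± 1.15 and 70.7 ± 13.8 CPM. Malat1, a nuclear RNA, had 16775 ± 2770 CPM in microglia and 43423 ± 6518 CPM in astrocytes. These non-coding genes were chosen after their values were seen.

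A small set of well-expressed genes hardly differed. With at least 200 CPM in both cell types and an absolute difference under 0.25 there were 72 genes. Map4k4, a kinase gene, had the smallest SE: 352, 386 and 434 CPM in microglia and 323, 371 and 417 CPM in astrocytes (0.07 ± 0.13, adjusted p = 0.664). Psmd1 (-0.06), Nucks1 (-0.24), Bptf (0.13), St13 (0.10) and Tmem30a (0.18) followed. With library totals Map4k4 (0.43), Bptf (0.49), St13 (0.46) and Tmem30a (0.54) were called higher in microglia and Psmd1 changed sign (0.30), since that scaling moves all genes up.

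Some called genes varied between mice. Within-mouse differences of Aldh6a1, a valine-degrading enzyme gene, ran from -8.62 to -1.63 on a log2 scale with 0.5 added to the CPM, and microglia of animal 25 held 0 CPM where the others held 15.6 to 34.8 CPM. Those of Mlxip ran from 1.73 to 7.38, of Dnm3 from -7.24 to -0.69 and of Ptk2 from -7.11 to -1.96. Each had libraries of few or 0 tags, where such a difference is imprecise.

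The same difference was measured in the 21 other mice, with no library shared. There 5891 of 7271 genes were called (81.0%). Of 4817 genes called in young wild-type mice and tested in both, 4792 had the same direction and 4630 were called again, while 0 were called in the opposite direction. The 25 with the opposite sign were not called there, and 211 called genes were not tested. Across 6955 genes, which are not independent replicates, the differences had a Pearson r of 0.987.

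**Figure D5:**
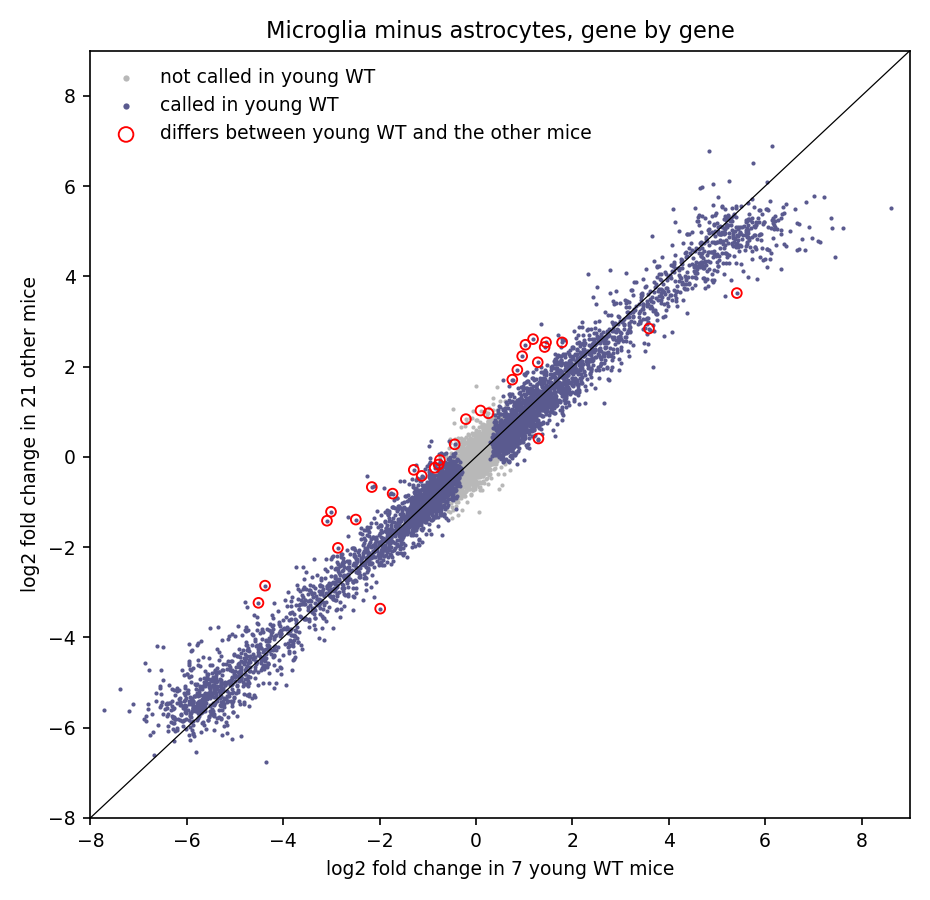
Log2 difference, microglia minus astrocytes, of each gene in the 7 young wild-type mice (x axis) and in the 21 other mice (y axis), with the line of equality. Red circles mark genes whose difference itself differed between young wild-type and the mean of the other groups.

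A test of the change itself, young wild type minus the mean of the other 3 mouse groups, called 31 genes (0.425% of 7295). For 27 of them the value was lower in young wild-type mice, and for 4 higher. The genes named here were chosen after their values were seen. Fth1, the ferritin heavy chain, had microglia minus astrocyte differences of -0.24 in young wild type, 0.02 in young knockout, 1.43 in old wild type and 1.11 in old knockout mice (change -1.10 ± 0.20, adjusted p = 0.00325). Rpl35a had 1.15, 2.01, 3.16 and 2.81 in the same order, and Ildr2 had -3.04, -3.44, -0.23 and -0.77. In all 3 the young knockout mice lay nearer to young wild type than the old mice did. Among the genes of the lists above, App (-0.67 ± 0.16) and Rps24 (-0.86 ± 0.18) also had lower values in young wild type. Beside Rpl35a and Rps24, the ribosomal protein genes Rps21 (-1.32 ± 0.24), Rplp2 (-1.15 ± 0.25), Rpl23 (-1.09 ± 0.25) and Rpl30 (-1.52 ± 0.34) were called. All of these were lower in young wild type. The median difference of the ribosomal protein list was also lower in young wild type than in each other mouse group, which was not tested.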

How the data were processed

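RNA of sorted microglia and astrocytes was measured by 3′ tag sequencing, with 7 libraries in each of 8 groups of cell type, Trem2 genotype and age. The authors deposited whole-number counts per gene, with no normalization, in a table of 53801 Ensembl genes. Per the labels' protocols, libraries came from low RNA input with a QuantSeq forward kit and an add-on for molecular identifiers. The submitters' processing notes name the build GRCm38.p6 and, as tools, STAR, R 3.4.3, FastQC 0.11.5 and MultiQC. How tags were counted and whether identifiers were collapsed is not stated in the sources used here, so the values are read as counts and not as molecules. Tag counts carry no gene length correction. Intervals and floors of counts cover counting error only.

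The 14 libraries of young wild-type mice were fitted in R 4.3.3 with edgeR 4.0.16 (TMM scaling, filterByExpr on the cell type, robust quasi-likelihood F-test, the animal as a block). The test against 2-fold was glmTreat with a log2 bound of 1. Adjusted p-values were Benjamini-Hochberg over all 7295 genes. Gene identifiers matched GENCODE M21 without version for 53706 of 53801, and lower-case symbols in the table were given the case of that reference. The 42 libraries of the other mice were fitted separately in the same way, and all 56 together for the change between mouse groups.

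Pairing rests on the labels, since each animal gave both sorts. The median correlation of the 2 sorts' deviations from their means over 5469 genes was 0.195 within animals (-0.171 to 0.316) and -0.00755 between animals. It exceeded 0.1 in 4 of 7, and in 3 of 7 the animal's own 2 sorts matched each other best.

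Named genes were the sort antigens, Trem2, the 15 with the largest difference in each direction (beyond 2-fold, at least 50 CPM in the higher cell type, proper name), up to 5 leading members and up to 3 opposing members of each list, members that go against their list, both genes of each family pair, and 10 genes each of least and most variable difference. Further list members are named to describe a list, and some genes the rule takes are not reported here. The members, gene lists and rules were chosen with earlier results of these data known. The fit was tested on simulated counts. Alternatives were other scalings, no filter, DESeq2 1.42.0, limma-voom (limma 3.58.1), no block, a term for RNA integrity (RIN), all libraries in one fit, and each mouse left out.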

Additional observations from a re-analysis of the deposited data

Results flagged for a closer look

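Single libraries stood apart from the other 6 of their sort in 15 of 112 groups of values examined (by Dixon's ratio of the gap to the range), where chance flags about 1 in 20. In microglia, animal 5 was highest for Gfap (6.95 CPM) and for the summed markers of oligodendrocyte precursors (10.4 CPM) and of ependymal and choroid cells (492 CPM). The same animal had the highest level of astrocyte genes in its microglia. Animal 13 was highest in microglia for Hspa1a (1050 CPM) and animal 17 for Il33 (14.8 CPM).

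In astrocytes, animal 21 was highest for P2ry12 (188 CPM), Ctss (835 CPM) and the summed border macrophage markers (57.3 CPM), and it also had the highest level of microglial genes in its astrocytes. Animal 9, with the lowest total count, was highest for Gfap (84.9 CPM) and the summed markers of oligodendrocyte precursors (52.6 CPM), neurons (978 CPM) and mural cells (352 CPM). Animal 1 was highest for Slc6a11 (3448 CPM), animal 13 for Lyve1 (1.35 CPM, where the other 6 astrocyte libraries held 0) and animal 5 lowest for the summed neutrophil markers (0 CPM).

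The cell type difference of 2 genes named by rule differed between young wild-type mice and the mean of the other 3 mouse groups. For the integrin gene Itgb5 the change was 0.69 ± 0.17 (adjusted p = 0.0331), with a difference of 3.55 in young wild type and 2.69, 2.85 and 3.04 in young knockout, old wild type and old knockout mice. For Hspa1a it was 1.78 ± 0.44 (adjusted p = 0.0496), with 5.38 in young wild type and 3.43, 3.36 and 4.01 in the others.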

How the results depend on the processing

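The counts of called genes stayed within 1.5 times of 5028 and 2833 under each scaling, tool and design tried except without the filter on low counts, which called 8789 genes and 5480 beyond 2-fold, and 12278 instead of 5891 in the other mice. More genes are tested without that filter. Without the replicate block, 5027 genes were called (4951 shared with the paired fit) and 2807 beyond 2-fold (2787 shared), and the block changed no other call of a named gene than Atp5j (-1.54 without it) and Atp1b3 (0.43 without it), which lost theirs. Leaving out each animal gave 4687 to 5094 and 2668 to 2933. RIN as a covariate gave 4938 and 2817, DESeq2 4744 and 2453, limma-voom 5058 and 2590, and the fit of 56 libraries 6543 and 3819 of 9434 tested. The library composition differences kept their direction and side. Their values without each animal ran from -10.5 to -9.53 percentage points (mitochondrial ribosomal RNA), -5.33 to -5.06 (other mitochondrial genes), -14.0 to -12.9 (50 most abundant genes) and -1282 to -1056 (genes with a count).

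Over 253 named genes and all settings, 4016 of 4044 values kept their direction and side, 15 lost and 12 gained a call, and 1 reversed: Psmd1, at 0.30 with library totals. With library totals, 13 called genes changed sign and 0 of these were called. Every list's median kept its sign under the 3 other scalings. Depth limits the 15 largest differences of each direction, which rest on 0 to 5 tags summed over the astrocyte libraries and on 1 to 20 tags over the microglial libraries.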

Other observations

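Outside mitochondrial genes and RP23-81C12.3, a gene with a clone name (14139 CPM in microglia and 19363 CPM in astrocytes), different genes led the tags of each sort apart from Malat1. Abundant genes of microglia included Malat1 (16775 CPM), Ctss (11516 CPM), Cx3cr1 (10022 CPM), Tmsb4x (5586 CPM), Actb (5222 CPM) and Cst3 (5136 CPM). Tmsb4x and Actb belong to the actin system and had 779 and 1368 CPM in astrocytes. Those of astrocytes included Malat1 (43423 CPM), Sparcl1 (14382 CPM), Slc1a2 (7856 CPM), Glul (4862 CPM), Mt1 (4621 CPM), Aldoc (4481 CPM), Slc4a4 (4420 CPM) and Dbi (4293 CPM). The metal-binding protein gene Mt1 had 409 CPM in microglia. These are means over 7 libraries of 3′ tags, so their order within a sort is that of tags.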
